A study of Mus musculus with 8 samples.

Results

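Chemokines are small secreted proteins that direct the movement of leukocytes along concentration gradients, and they fall mainly into CXC and CC families named for the spacing of their first cysteines. They act through G protein-coupled receptors such as CXCR2 on neutrophils, CCR2 on inflammatory monocytes and CXCR4 on lymphocytes and progenitor cells, while atypical receptors bind chemokines without G protein signalling. In liver they are made by hepatocytes, Kupffer cells (the resident macrophages), sinusoidal endothelium and stellate cells, and injury or resection of the organ is known to induce several of them. Described here are 10 chemokine ligand genes among 47719 genes of the deposited table: the CXC ligands Cxcl1, Cxcl9, Cxcl10, Cxcl12, Cxcl13 and Cxcl16 and the CC ligands Ccl2, Ccl6, Ccl9 and Ccl24. They were chosen by name, each matched 1 row, and 9 of the 10 passed the filter for testing (at least 1 FPKM in at least 2 libraries). FPKM counts fragments relative to transcript length and library size, so levels of different genes can be set side by side on it.

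The study concerned encapsulated human hepatocyte organoids as a treatment of liver failure, and liver RNA of wild type C57BL/6 mice was sequenced in 8 libraries. The control group held 2 libraries of normal mice aged 10 weeks, the day 2 group held 4 libraries taken 2 days after extended hepatectomy (removal of most of the liver), and the day 14 group held 2 libraries taken 14 days after it. The design text names EMC-treated controls and eLO-treated mice at day 2 and eLO-treated mice at day 14, but which day 2 library had which treatment is not in the labels. Surgery, treatment and time therefore cannot be told apart in any comparison here, and the age of the operated mice is not in the labels. Day 2 replicate 1 has a title that reads day 1 and an age label that reads day 2, and day 2 replicate 3 carries the letters TVR in its title, whose meaning is not given. The column name of day 2 replicate 3 also holds the letters PHX, which are in no other column name and are not explained. Total FPKM ranged from 686332 to 1298005 per library. Absolute depth is unknown, and the most common ratio of the lowest values put relative depth between 0.632 (day 14 replicate 1) and 1.14 (day 2 replicate 4) times that of control replicate 1. How the denominator of FPKM was counted is not known, so this need not be the ratio of fragments. Hepatocyte markers were abundant in each library, at a summed 42478 to 70054 FPKM over 10 genes, as the label of liver requires.

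The promoters are shown because several of these genes lie near each other and yet had different levels across the libraries. RefSeq starts on GRCm38.p6 were found for 7 of the 10 genes. The 250 bases before each start were searched on both strands for 4 motifs, and capitals mark the matches: GGG and TTCC with any 3 bases between (NF-kB type), GAAA repeated with any 2 bases between (interferon-stimulated response element or ISRE type), TTCNNNGAA of the gamma-activated site (GAS) type and TGANTCA of the AP-1 type. Among 32851 promoters of the same length these occurred in 4.65%, 2.98%, 7.02% and 6.75%. Below are the 130 bases before the start of Cxcl1 (chr5:90891115-90891244, plus strand), Ccl6 (chr11:83593088-83593217, minus strand), Ccl9 (chr11:83578637-83578766, minus strand) and Cxcl12 (chr6:117168405-117168534, plus strand), and the 250 bases before that of Cxcl10 (chr5:92348890-92349139, minus strand), each 5′ to 3′.
Cxcl1: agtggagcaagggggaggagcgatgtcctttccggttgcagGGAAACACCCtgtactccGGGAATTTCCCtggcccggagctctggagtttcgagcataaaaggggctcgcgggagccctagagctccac
Ccl6: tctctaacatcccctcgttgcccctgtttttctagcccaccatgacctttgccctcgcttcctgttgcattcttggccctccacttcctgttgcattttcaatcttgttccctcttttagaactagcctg
Ccl9: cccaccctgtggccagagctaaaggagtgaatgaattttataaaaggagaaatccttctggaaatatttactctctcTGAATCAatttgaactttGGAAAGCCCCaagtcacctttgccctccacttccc
Cxcl12: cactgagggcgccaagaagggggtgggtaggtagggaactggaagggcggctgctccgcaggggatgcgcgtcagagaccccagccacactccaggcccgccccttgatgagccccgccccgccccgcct
Cxcl10: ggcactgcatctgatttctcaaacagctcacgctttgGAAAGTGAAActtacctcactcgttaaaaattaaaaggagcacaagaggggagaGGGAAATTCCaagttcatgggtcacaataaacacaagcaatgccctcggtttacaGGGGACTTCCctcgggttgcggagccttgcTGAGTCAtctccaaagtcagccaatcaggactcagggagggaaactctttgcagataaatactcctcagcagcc
Counting the base before the start as -1, Cxcl1 held NF-kB type matches at -89 to -80 and, on both strands and overlapping, at -71 to -61. Cxcl10 held them at -159 to -150 and -104 to -95, with an ISRE type match at -213 to -204 and an AP-1 type match at -74 to -68. Ccl9 held an AP-1 type match at -53 to -47 and an NF-kB type match on the other strand at -35 to -26. None of the 4 motifs was found in the 250 bases before Ccl6, Cxcl9, Cxcl12 or Cxcl13. A match is a description of letters and not a shown binding site.

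The order of the 10 levels differed between groups. In control liver Cxcl12, a ligand of CXCR4 made by stromal and endothelial cells, stood first at 127 ± 3.45 FPKM (SD, n = 2) and Ccl9, a macrophage CC chemokine, followed at 38.3 ± 0.470 FPKM. All other members were under 7 FPKM on average, with Cxcl1 at 6.56 ± 5.36 and Ccl6 at 5.46 ± 1.10 FPKM inside each other's spread, and Ccl2 lowest at 0.246 ± 0.0711 FPKM. At day 2 the first place was held by Cxcl1 at 137 ± 107 FPKM (SD, n = 4), ahead of Ccl9 at 121 ± 166, Ccl6 at 55.4 ± 39.2 and Cxcl12 at 53.0 ± 24.5 FPKM, and none of these neighbours differed beyond its spread. At day 14 Cxcl12 was first again at 93.1 ± 8.87 FPKM (SD, n = 2), followed by Cxcl1 at 31.9 ± 2.03 and Ccl9 at 13.2 ± 8.32 FPKM.

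**Figure D1:**
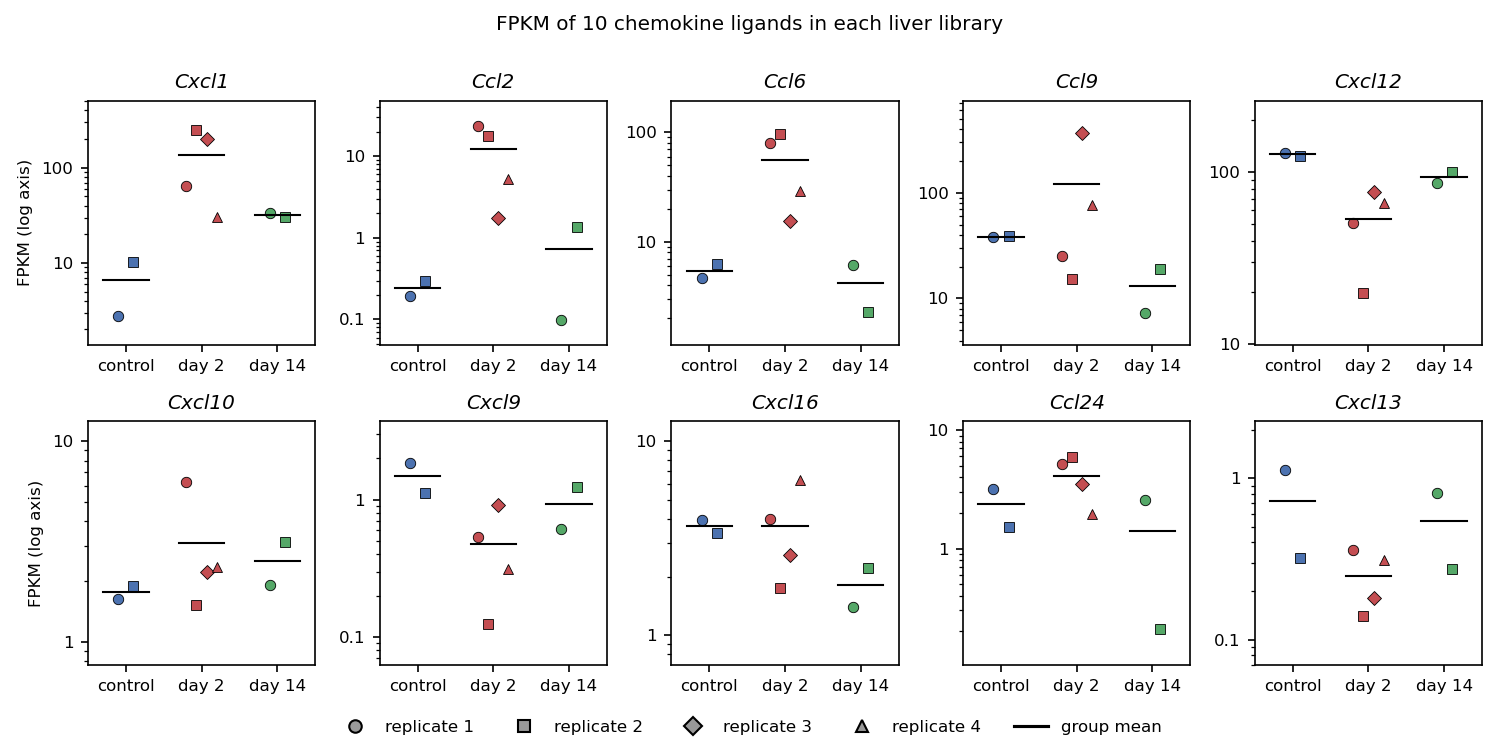
FPKM (vertical log axis, scaled per gene) of the 10 chemokine ligands in each library of control, day 2 and day 14 liver; symbols mark the replicate number, which names a library and pairs none, and bars the group mean. Cxcl1, Ccl2 and Ccl6 are higher in all 4 day 2 libraries than in both controls, Cxcl12 is lower, and Ccl9 runs from 15.1 to 367 FPKM within day 2.

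The comparison of day 2 with control asked how the remnant early after surgery differed from normal liver. Cxcl1, Ccl2 and Ccl6 rose, no member fell, and the other 6 tested members did not pass. A gene was called when its limma p, adjusted by Benjamini-Hochberg over all 12340 genes tested, was under 0.05. The 3 called of 9 tested members stand beside 21.2% of all genes called, 9.72% higher and 11.5% lower. Ccl2 was under 1 FPKM in both controls and entered the test through operated libraries, so the count supports nothing about the members as a list. Ranges that did not overlap between day 2 and control were seen for 5 of 9 members, 3 higher and 2 lower, beside 51.5% of all genes tested (26.1% higher and 25.4% lower), so this count is near the background and is no result about the members. The median log2 change of the 9 members was 0.59, beside 0.05 for all genes tested. That median is the value of Ccl9, which was not called and turned to -0.29 without day 2 replicate 3. The number of libraries is small, and whether they came from separate mice is not stated. Each p therefore sets a difference against the spread between these libraries, pooled over the 3 groups. Within day 2 that spread may include a difference of treatment.

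Cxcl1 encodes a ligand of CXCR2 that draws neutrophils (chromosome 5, 90891241 to 90893115 on GRCm38, plus strand). It stood at 2.77 and 10.3 FPKM in the control libraries, 63.8, 252, 202 and 30.4 FPKM in day 2 replicates 1 to 4, and 33.3 and 30.4 FPKM at day 14. All operated libraries were above both controls, and the lowest day 2 library lay at the day 14 level. The log2 change from control to day 2 was 3.95 ± 0.83 with its SE (limma adjusted p = 0.0161). Fold changes here are of log2(FPKM + 1) and so too small for low genes. It was 3.15 without control replicate 1 and 4.74 without control replicate 2, at adjusted p of 0.160 and 0.0836. At day 14 the log2 change against control was 2.33 ± 0.96 and did not pass (limma adjusted p = 0.150), with a 95% interval from 0.12 to 4.54. With only the control and day 14 libraries in the fit it passed, at an adjusted p of 0.0449.

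Ccl2 encodes the main CCR2 ligand, which draws inflammatory monocytes (chromosome 11, 82035571 to 82037453, plus strand). It stood at 0.196 and 0.296 FPKM in control and 23.7, 17.8, 1.75 and 5.20 FPKM in day 2 replicates 1 to 4, so that the day 2 mean was 49.3-fold the control mean. At day 14 it was 0.0982 and 1.37 FPKM, and only day 2 was apart from the other groups. The log2 change at day 2 was 2.92 ± 0.82 (limma adjusted p = 0.0393), but both controls were under 1 FPKM and the gene entered the test through its operated libraries. The call was lost with either control left out (adjusted p of 0.210 without replicate 1 and 0.199 without replicate 2), without day 2 replicate 1 (0.0675), day 2 replicate 2 (0.0613) or either day 14 library (at most 0.0566), with no filter (0.0927), with only the control and day 2 libraries in the fit (0.0589), and with length and GC trends removed (0.0545). From day 2 to day 14 Ccl2 changed by -2.55 ± 0.82 log2 units without passing (limma adjusted p = 0.0680), and without day 2 replicate 3 it passed at -3.14 (0.0161). Its opposite-strand neighbour Gm17268, which spans the same 1883 bases, was listed at 0 in every library.

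Ccl6 encodes a macrophage and neutrophil CC chemokine of mice (chromosome 11, 83587882 to 83593087, minus strand). It stood at 4.69 and 6.24 FPKM in control, at 80.6, 96.6, 15.4 and 29.2 FPKM in day 2 replicates 1 to 4, and at 6.09 and 2.30 FPKM at day 14. Each day 2 library was above each control and each day 14 library. Ccl6 rose by 2.80 ± 0.70 log2 units from control to day 2 (limma adjusted p = 0.0283) and fell by 3.20 ± 0.70 on the log2 scale from day 2 to day 14 (limma adjusted p = 0.0220). The first call was lost without either control (adjusted p of 0.189 and 0.157) without day 2 replicate 1 (0.0568) and with no filter (0.0660), and the second without either day 14 library (0.122 and 0.114) and with no filter (0.0539). Day 14 and control overlapped (log2 change -0.41, 95% interval -2.27 to 1.46). The opposite-strand transcript E230016K23Rik, which overlaps all 5206 bases of the gene, reached at most 0.228 FPKM.

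Ccl9 lies 9245 bases from Ccl6 on the same strand (chromosome 11, 83572919 to 83578636) and its product is a ligand of CCR1, yet its levels were arranged differently. It stood at 38.0 and 38.7 FPKM in control, at 25.4, 15.1, 367 and 76.4 FPKM in day 2 replicates 1 to 4, and at 7.32 and 19.1 FPKM at day 14. Day 2 libraries lay on both sides of control, 24.3-fold apart, with replicate 3 highest where Ccl6 was lowest. The ratio of Ccl6 to Ccl9 FPKM was 0.123 and 0.162 in control, 3.18, 6.38, 0.0420 and 0.382 in day 2 replicates 1 to 4, and 0.832 and 0.121 at day 14. The log2 change of Ccl9 at day 2 was 0.59 ± 1.09 (limma adjusted p = 0.718), turning to -0.29 without day 2 replicate 3. Both day 14 values were under both controls, but the log2 change of -1.60 ± 1.26 did not pass (limma adjusted p = 0.438).

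Cxcl12, the homeostatic ligand of CXCR4 and ACKR3 (chromosome 6, 117168535 to 117181367, plus strand), was arranged the other way. It stood at 129 and 124 FPKM in control, at 50.3, 19.9, 76.3 and 65.7 FPKM in day 2 replicates 1 to 4, and at 86.8 and 99.4 FPKM at day 14. The 3 groups did not overlap, with control highest, day 2 lowest and day 14 between. The log2 change at day 2 was -1.40 ± 0.48 and missed the threshold (limma adjusted p = 0.0717, 95% interval -2.50 to -0.29). Without day 2 replicate 2, the lowest library, it passed at -0.99 (adjusted p = 0.0281), and without day 2 replicate 3 it passed at -1.62 (0.0414). From day 2 to day 14 the log2 change was 0.95 ± 0.48 (limma adjusted p = 0.202).

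**Figure D2:**
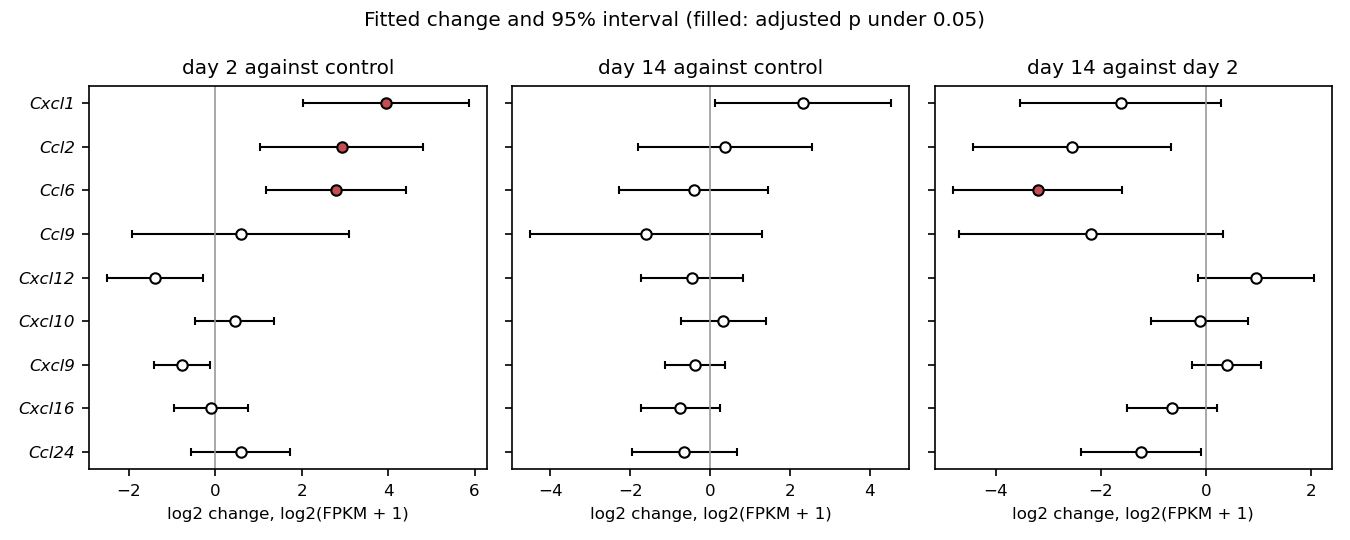
Fitted log2 change on the log2(FPKM + 1) scale (horizontal axis) of the 9 tested ligands in 3 comparisons, with 95% intervals from limma; filled points have an adjusted p under 0.05. Filled are Cxcl1, Ccl2 and Ccl6 for day 2 against control and Ccl6 for day 14 against day 2, and comparisons share libraries.

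Cxcl9 and Cxcl10 encode CXCR3 ligands that are induced by interferon and draw T and NK cells, and they lie 18558 bases apart on the minus strand of chromosome 5 (92321347 to 92328079 and 92346638 to 92348889). Cxcl9 was at 1.87 and 1.13 FPKM in control, at 0.538, 0.125, 0.923 and 0.313 FPKM in day 2 replicates 1 to 4, and at 0.613 and 1.24 FPKM at day 14. All day 2 libraries were under both controls, but the log2 change of -0.77 ± 0.28 did not pass (limma adjusted p = 0.0865) and did so only without day 2 replicate 3 (-0.91, adjusted p = 0.0450) among the alternatives tried. Cxcl10 was at 1.64 and 1.90 FPKM in control, at 6.30, 1.53, 2.23 and 2.37 FPKM in day 2 replicates 1 to 4, and at 1.92 and 3.14 FPKM at day 14. Day 2 replicate 1 was above the other 7 libraries, which lay within 1.53 to 3.14 FPKM. Its log2 change at day 2 was 0.45 (95% interval -0.47 to 1.37, limma adjusted p = 0.442). The span of Cxcl10 overlaps that of Art3 on the opposite strand over its whole length, and Art3 was at 0.330 to 3.24 FPKM. Exons were not compared, so whether unstranded reads of the 2 genes can be told apart is not known.

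The remaining members were low. Cxcl16, a membrane-bound ligand of CXCR6 (chromosome 11, 70453983 to 70459984, minus strand), was at 3.93 and 3.38 FPKM in control, at 3.96, 1.75, 2.60 and 6.35 FPKM in day 2 replicates 1 to 4, and at 1.41 and 2.21 FPKM at day 14. Day 2 surrounded the controls and both day 14 values were lower, without a call (day 14 against control -0.74 ± 0.43, limma adjusted p = 0.288). Zmynd15 overlaps it on the opposite strand over 552 bases, at 0.265 to 3.58 FPKM and highest at day 14. Ccl24, an eosinophil chemokine binding CCR3 (chromosome 5, 135569937 to 135573049, minus strand), was at 3.21 and 1.51 FPKM in control, at 5.15, 5.94, 3.52 and 1.95 FPKM in day 2 replicates 1 to 4, and at 2.58 and 0.208 FPKM at day 14. Its groups overlapped in all 3 comparisons. Cxcl13, the B cell chemokine binding CXCR5 (chromosome 5, 95956951 to 95961068, plus strand), was between 0.139 and 1.13 FPKM in all libraries and was not tested.

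Against control, none of the 9 tested members was called at day 14 by limma, where 9.79% of all genes were called (5.21% higher and 4.58% lower), and 1 (Cxcl1) had an unadjusted p under 0.05. Ranges did not overlap for 5 of the 9 members, 2 higher and 3 lower, beside 70.9% of all genes (35.3% higher and 35.7% lower). Between day 2 and day 14, Ccl6 alone of 9 was called, beside 16.1% of all genes (9.09% higher and 7.03% lower). There ranges did not overlap for 3 members, 1 higher and 2 lower, beside 41.6% of all genes (21.2% higher and 20.4% lower). These comparisons share control or day 2 libraries with the first one, so their values are given side by side and not as separate evidence. The median log2 change of the 9 members was -0.41 from control to day 14 and -1.23 from day 2 to day 14, beside 0.00 and -0.03 for all genes tested. With 2 libraries in each of 2 groups, lack of a call does not show that a level was the same.

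The sum of FPKM over 41 chemokine ligand genes showed how the mixture of transcripts differed. It was 214 and 209 FPKM in control, 529, 940, 709 and 261 FPKM in day 2 replicates 1 to 4, and 223 and 220 FPKM at day 14. Cxcl12 made up 60.2% and 59.3% of it in control, 9.52%, 2.12%, 10.8% and 25.1% in the day 2 libraries, and 39.0% and 45.2% at day 14. Cxcl1 made up 1.29% and 4.94% in control, between 11.6% and 28.5% at day 2 and 14.9% and 13.8% at day 14, so its share at day 14 was inside the day 2 range while its FPKM was at the low end of it. The leading ligand was not the same in the day 2 libraries: Cxcl14 made up 38.2% and 48.9% in replicates 1 and 2, and Ccl9 made up 51.8% and 29.2% in replicates 3 and 4.

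**Figure D3:**
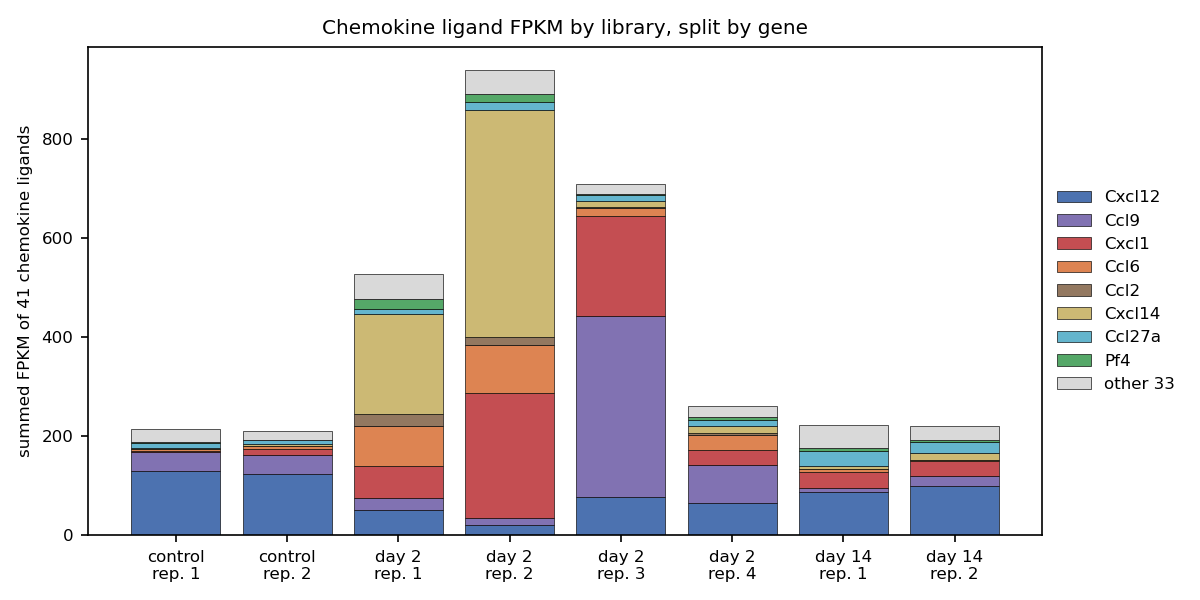
Stacked bars of FPKM (vertical axis from 0) summed over 41 chemokine ligand genes in each library, split by gene. Cxcl12 is the largest part in control and day 14 libraries, Cxcl14 in day 2 replicates 1 and 2, and Ccl9 in day 2 replicates 3 and 4.

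Markers of the cells that answer to or make these ligands are set beside them here. In bulk tissue more cells of a type and more RNA per cell cannot be told apart. The summed FPKM of 12 neutrophil markers was 4.32 and 8.23 in control, 144, 333, 90.3 and 32.5 in day 2 replicates 1 to 4, and 16.4 and 78.9 at day 14. Cxcl1 and this sum were both highest in day 2 replicate 2, and both were lower in replicate 4 than in the other day 2 libraries. The other libraries did not keep this order: replicate 3 was above replicate 1 for Cxcl1 and under it for the sum, and at day 14 replicate 1 had the higher Cxcl1 and the lower sum. Of these markers 6 were tested and 3 rose at day 2, S100a8, S100a9 and Retnlg, beside 9.72% of all genes called higher. Among those tested, only S100a9 reached 1 FPKM in both controls. Retnlg, Csf3r, Ngp and Mmp9 were under it in both controls and S100a8 in control replicate 1. These entered the test through operated libraries, so the count supports nothing about the list. Several other markers of the list were sparse: Mpo, Ngp, Camp and Ltf were at 0 in both controls. Ngp was at 1.45, 4.43, 0.916 and 0.260 FPKM in day 2 replicates 1 to 4. Mpo was also at 0 in day 2 replicates 3 and 4, Camp in replicates 1 and 4 and Ltf in replicate 4. Ly6g averaged 0.368 FPKM in control and 0.175 FPKM at day 2.

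The 10 monocyte markers summed to 49.4 and 40.4 FPKM in control, to 114, 96.6, 50.5 and 72.8 FPKM in day 2 replicates 1 to 4, and to 24.3 and 31.1 FPKM at day 14. Within day 2 this is the order of the Ccl2 values, with replicate 1 highest and replicate 3 lowest. Ly6c2, Plac8 and S100a4 rose among 7 tested, beside 9.72% of all genes called higher. Ly6c2 and S100a4 were under 1 FPKM in both controls, and Chil3, also tested, was at 0 in both. These genes entered the test through operated libraries, so the count supports nothing about the list. Lyz2, the most abundant of these markers in control, went from a mean of 36.1 FPKM to 26.3 FPKM at day 2 without a call (log2 change -0.48) and fell at day 14 (limma adjusted p = 0.0447). The 12 Kupffer cell markers summed to 168 to 202 FPKM in control, 182 to 279 at day 2 and 79.5 to 89.5 at day 14. At day 2 Marco rose and Adgre1 and Csf1r fell. The day 2 sums depended much on Marco, at 2.38 and 1.82 FPKM in control and 35.5, 80.4, 33.4 and 51.0 FPKM in day 2 replicates 1 to 4. The median log2 change of the 12 markers at day 2 was -0.34. At day 14, 6 of the 12 Kupffer cell markers fell against control, namely Adgre1, Csf1r, Vsig4, C1qa, C1qb and C1qc, beside 4.58% of all genes called lower. The group means of Ccl6, Ccl9, Cxcl16 and Ccl24 were also lowest at day 14, but none of these members was called there against control. The 10 sinusoidal endothelial markers summed to 131 to 142 FPKM in control, 72.7 to 118 at day 2 and 70.2 to 86.9 at day 14, and Kdr and Fcgr2b fell at day 2, beside 11.5% of all genes called lower. Cxcl12 and this sum were both highest in control, but within day 2 Cxcl12 was highest in replicate 3, where the sum was lowest. The day 2 sums depended much on Stab1, at 37.7, 53.4, 9.83 and 21.3 FPKM in replicates 1 to 4. Stab2, Lyve1 and Bmp2 were also lowest in replicate 3. Clec4g, Fcgr2b, Kdr, Oit3, Ehd3 and Pecam1 were lowest in replicate 2, as was Cxcl12. At day 14 Cxcl12 was above all day 2 libraries, while the sum was not. None of the 11 stellate cell markers was called at day 2 by limma (0 also at an unadjusted p under 0.05), and their sum was 140 to 153 FPKM in control and 167 to 241 at day 2. The part of any of these cell types in the chemokine values was not tested.

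**Figure D4:**
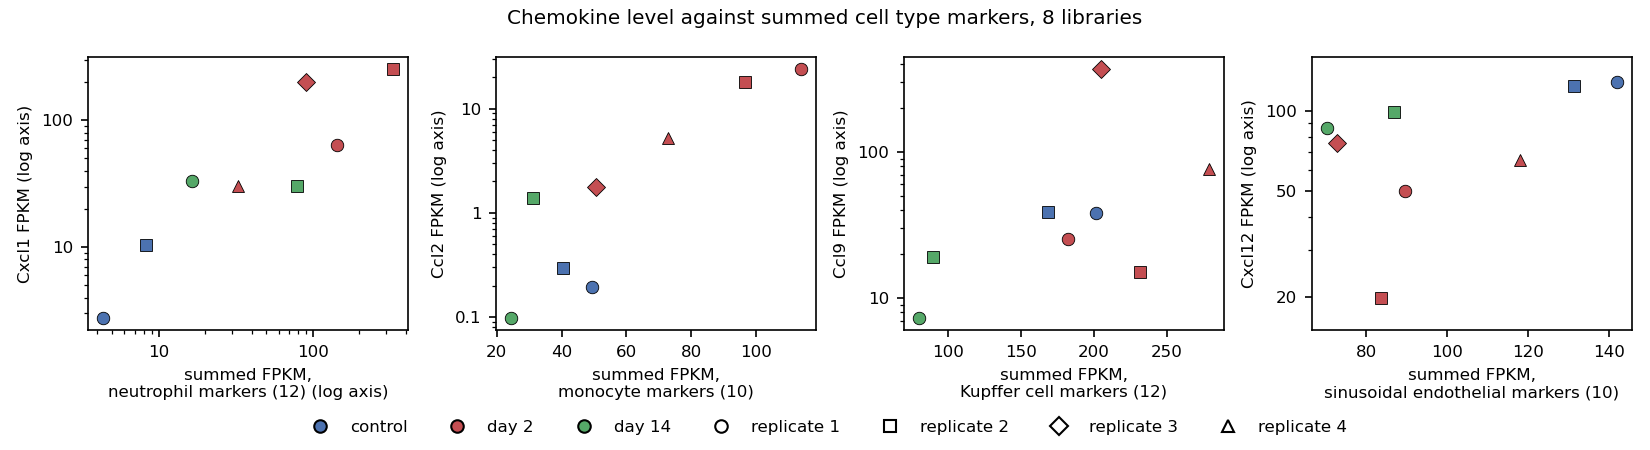
FPKM of Cxcl1, Ccl2, Ccl9 and Cxcl12 (vertical log axes) against the summed FPKM of marker lists for 1 cell type each (horizontal axes, log for neutrophils), with 1 point per library coloured by group. Ccl2 has the order of the monocyte sum within day 2, while the highest Ccl9 value, 367 FPKM, stands at a Kupffer sum near that of control replicate 1. That sum includes Marco at 33.4 FPKM, against 2.38 FPKM in control replicate 1.

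T and NK cell markers, 10 in the list, summed to 3.00 and 2.16 FPKM in control, 0.334 to 1.42 FPKM at day 2 and 12.6 and 6.47 FPKM at day 14. Cxcl9 was likewise lower at day 2 than in control, but at day 14 it overlapped the controls. Ncr1 was at 0 in all control and day 2 libraries. B cell markers, including the immunoglobulin genes Igkc and Ighm, summed to 4.39 to 17.9 FPKM in control and day 2 libraries and to 53.8 and 56.6 FPKM at day 14, while the B cell ligand Cxcl13 was at most at 1.13 FPKM. Eosinophil markers summed to at most 0.291 FPKM in any library, and none of the 5 was tested.

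Counts of called genes of the upstream pathways are read beside all genes, of which 21.2% were called at day 2 (9.72% higher and 11.5% lower) with a median log2 change of 0.05. Of 15 tested NF-kB response genes, 3 rose at day 2 (Nfkbiz, Icam1 and Vcam1) and none fell, with a median log2 change of 0.66. That median is the value of Tnfaip3. Tnfaip3 and Relb were under 1 FPKM in both controls and entered the test through operated libraries, while Tnf and Il6 did not pass the filter. The median is thus partly set by the filter and supports nothing about the list. Nfkbiz, a nuclear cofactor of NF-kB, rose by 1.79 ± 0.37 log2 units (limma adjusted p = 0.0151) and was called at day 14 too. Of 24 tested interferon response genes, 3 fell at day 2 (Ifit1, Ifit3 and Rsad2) and none rose, with a median of 0.15.

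Beyond the 10 members, 31 other chemokine ligands and 24 receptors were listed. Of the other ligands 14 were tested. At day 2 Ccl4 and Ccl19 rose and Ccl25 fell against control, 3 of 14 beside 21.2% of all genes called, which is near the background. At day 14 Ccl5, Ccl27a and Cxcl11 rose against control and none fell, beside 5.21% of all genes called higher. Between day 2 and day 14, Ccl5, Ccl25, Ccl27a, Cxcl11 and Xcl1 rose, beside 9.09% called higher. Xcl1 was at 1.90 and 0.429 FPKM in control, at most at 0.176 FPKM at day 2, and at 7.20 and 0.880 FPKM at day 14. It thus reached 1 FPKM only in control replicate 1 and day 14 replicate 1. Ccl4, Ccl19, Ccl5 and Cxcl11 were under 1 FPKM in both controls and, like Ccl2, entered the test through operated libraries, so their counts support nothing about the list. The largest level belonged to Cxcl14, a homeostatic CXC chemokine, at 1.84 and 3.54 FPKM in control, 202, 459, 13.4 and 14.5 FPKM in day 2 replicates 1 to 4, and 6.33 and 12.9 FPKM at day 14. All 4 day 2 libraries were above both controls, and the log2 change of 4.24 ± 1.37 did not pass (limma adjusted p = 0.0601). Cxcl2, which lies 10755 bases from Cxcl1 on the same strand and encodes another CXCR2 ligand, was at 0.429 and 0.299 FPKM in control, 7.57, 20.6, 1.01 and 0.795 FPKM in day 2 replicates 1 to 4, and 1.03 and 1.08 FPKM at day 14 (1.90 at day 2, limma adjusted p = 0.170). Day 2 replicates 3 and 4 lay under both day 14 libraries. Pf4, the platelet CXC chemokine, was at 2.26 and 0.808 FPKM in control and 20.4, 16.4, 2.25 and 7.81 FPKM in day 2 replicates 1 to 4 (2.07 ± 0.70, limma adjusted p = 0.0676).

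Cxcl11, which encodes a further CXCR3 ligand in other strains, is typed as a polymorphic pseudogene in the annotation used, whose reference strain is C57BL/6. Its transcript was at 0.577 and 0.917 FPKM in control, at 0.286 to 1.33 FPKM at day 2 and at 10.0 and 2.99 FPKM at day 14. It rose by 1.93 ± 0.47 log2 units from control to day 14 (limma adjusted p = 0.0429). It overlaps Art3 and the processed pseudogene Gm2673 on the opposite strand. Ccl27a went from 9.18 and 8.08 FPKM in control to 29.7 and 22.1 FPKM at day 14, a rise of 1.47 ± 0.27 log2 units (limma adjusted p = 0.0273). Its opposite-strand neighbour Il11ra1 stood at 16.1 and 13.9 FPKM in control and 46.3 and 44.4 FPKM at day 14, and the 2 genes share 8 bases. Ccl27a and Ccl19 have close relatives or copies that may share reads.

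**Figure D5:**
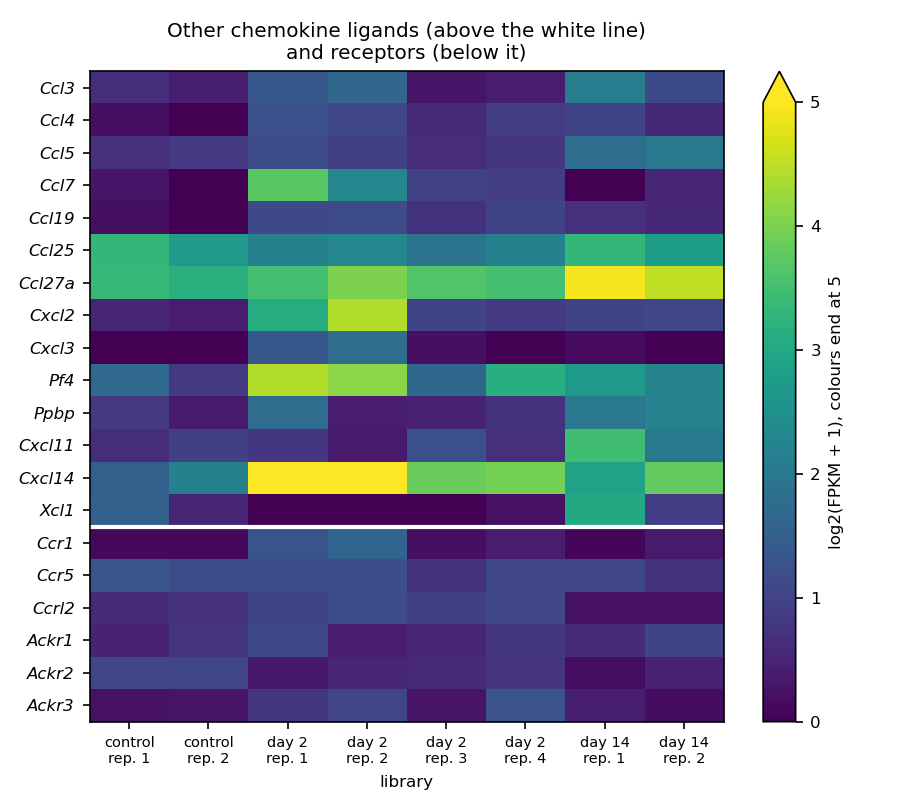
Colour map of log2(FPKM + 1) for the 14 other ligands and 6 receptors that were tested (rows) in the 8 libraries (columns), with colours ending at 5. Cxcl14 reaches 459 FPKM in day 2 replicate 2, Ccl27a and Cxcl11 are highest at day 14, and the receptors stay low.

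Receptor transcripts were scarce beside their ligands. Only 6 of 24 passed the filter, the sum over all 24 was 4.16 to 11.2 FPKM, and 1 call was made, the atypical receptor gene Ccrl2, which fell by 0.82 ± 0.19 on the log2 scale from day 2 to day 14 (limma adjusted p = 0.0259). Ccrl2 reached 1 FPKM only in 3 day 2 libraries and so entered the test through the group where it was high. The receptors of the 3 risers were picked out after their values were seen. Cxcr2, the receptor of Cxcl1, was at 0.0889 and 0.0405 FPKM in control and 0.741, 1.68, 0.268 and 0.275 FPKM in day 2 replicates 1 to 4. Ccr2 was at 0.226 and 0.607 FPKM in control and at 1.26, 0.686, 0.288 and 0.514 FPKM in these libraries, and Ccr1 went from 0.0710 and 0.0730 FPKM to 1.47, 2.06, 0.154 and 0.298 FPKM. Cxcr2 and Ccr1 were higher in each day 2 library than in both controls, Ccr2 was not, and Ccr1 did not pass (limma adjusted p = 0.203).

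For likeness of pattern, each tested member was compared with up to 7865 named genes by Pearson correlation of log2(FPKM + 1) over the 8 libraries, which fall into 3 groups. The values describe the nearest of very many genes. Nearest to Cxcl1 was Socs3, a feedback inhibitor of STAT3 signalling (r = 0.977), which went from 2.64 and 3.22 FPKM in control to 27.1, 71.7, 48.1 and 12.8 FPKM in day 2 replicates 1 to 4. Nearest to Cxcl12 was Slc40a1, the iron exporter ferroportin (r = 0.998), at 31.7 and 26.5 FPKM in control and 7.50, 1.74, 15.6 and 12.03 FPKM at day 2. Both have the order of their chemokine across the day 2 libraries, which their choice by correlation over the same libraries makes likely in advance. Second nearest to Ccl2 was Cidec, a lipid droplet protein gene (r = 0.984), at 142, 154, 1.64 and 20.96 FPKM in these libraries, and nearest was Guk1 (r = 0.986). Dusp3 and Slc51b were nearest to Ccl6 (r = 0.984 and 0.980), Opa3 and Cse1l to Ccl9 (0.967 and 0.965), Slc39a4 and Gatd1 to Cxcl10 (0.975 and 0.933), and Egln3 and Cd55 to Cxcl16 (0.968 and 0.966). Caskin2 followed Socs3 for Cxcl1 (r = 0.975), Sec14l2 followed Slc40a1 for Cxcl12 (0.984), Nudt16l1 and Tm7sf2 were nearest to Cxcl9 (0.943 and 0.939), and Tdg and Amz2 to Ccl24 (0.928 and 0.904). Among the members themselves the closest pair was Ccl2 and Ccl6 (r = 0.920) and the most opposed was Cxcl12 and Ccl6 (r = -0.872).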

How the data were processed

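The authors deposited gene-level FPKM values, 1 column per library. Builds GRCm38 and mm9 and the tools Cufflinks 2.2.1, HISAT2 2.10, DESeq2 and HTSeq appear in the submitters' processing notes without a role. How the table itself was made (aligner, annotation, strand setting, scaling) is not given in the sources used here. RNA was prepared with a TruSeq RNA kit, per the labels' protocols.

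A pseudocount of 1 was added before taking log2, and genes reaching 1 FPKM in 2 or more libraries entered a limma 3.58.1 model (R 4.3.3) with 3 group means over all 8 libraries and a mean-variance trend, first tested on simulated data. The Benjamini-Hochberg adjustment ran over all genes tested in each of 3 comparisons. Positions come from GENCODE release M21 on GRCm38, promoters from RefSeq on GRCm38.p6. Members and lists were chosen with earlier results of these data known. Named besides the 10 members are other ligands and receptors called anywhere or averaging at least 5 FPKM in a group, up to 3 called genes of each other list by size of change at day 2 and the 2 genes most like each member. Exceptions are stated. Alternatives were another pseudocount (0.1), no filter or 5 FPKM, 2 scalings, only the 2 groups compared, no trend, removal of transcript length and GC trends (splines of 4 degrees of freedom, 12307 genes with a length), and leaving out each library. Figures used matplotlib 3.10.9.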

Additional observations from a re-analysis of the deposited data

Results flagged for a closer look

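Ccl6 was picked out because its difference from control was not the same at the 2 times after surgery. The effect at day 14 minus that at day 2, which equals the change from day 2 to day 14, was -3.20 log2 units (limma adjusted p = 0.0220), and all 4 day 2 libraries were above both day 14 libraries. The call was lost when either day 14 library was left out. No day 2 library was far enough from the other 3 to be picked out for any member, although Ccl9 and Cxcl10 came close, with a gap of 0.826 and 0.823 of the range, just under Dixon's critical value for 4 samples.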

How the results depend on the processing

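Counts of calls depended on the settings more than directions did. With no filter, 1 member was called for day 2 against control and 0 for day 14 against day 2, while a pseudocount of 0.1 called 2 members for the latter, and fitting only the 2 groups compared called 1 for day 14 against control. Over all genes, day 2 against control went from 2620 calls to 1739 with length and GC trends removed (806 higher and 933 lower). Day 14 against control went from 1208 to 691 with no filter, 2664 with only the 2 groups and 508 with those trends removed, and day 14 against day 2 went from 1990 to 982 with only the 2 groups. Leaving out each library, members called ranged from 0 to 5, from 0 to 0 and from 0 to 2 in these 3 comparisons, and genes called from 92 to 2971, from 0 to 2097 and from 17 to 2472. Without either control 0 members were called at day 2, and without day 2 replicate 3 there were 5.

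Directions that turned were all of uncalled changes. Leaving out each library, the log2 change from control to day 2 ranged from -0.34 to 0.13 for Cxcl16 (positive without day 2 replicate 2) and from -0.29 to 1.21 for Ccl9 (negative without day 2 replicate 3). From control to day 14 it ranged from -0.18 to 0.93 for Ccl2, from -0.96 to 0.14 for Ccl6 and from -1.43 to 0.14 for Ccl24, each turning without day 14 replicate 2. From day 2 to day 14 it ranged from -0.37 to 0.20 for Cxcl10, turning without day 2 replicate 1 and, at 0.14, without day 14 replicate 1. Median-ratio and quantile scaling left each member on its side of the threshold. When a group was left with 1 library, it was assumed to vary like the others. The cause of these shifts was not tested. The number of fragments behind each value is unknown, which limits what can be read from levels under 1 FPKM, such as those of Ccl2, Cxcl9 and Cxcl13. No paired analysis was possible because the groups share at most 1 number that could tie animals: the number 2 stands in the titles of control replicate 2, day 2 replicate 1 and day 14 replicate 1, and nothing shows that it marks the same animal or batch.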

Other observations

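Ccl7 and Cxcl3, ligand genes outside the rule for named genes and picked out after their values were seen, had like Cxcl2 higher values in day 2 replicates 1 and 2 than in the other 6 libraries. Ccl7, which lies 8258 bases from Ccl2, was at 12.2 and 3.96 FPKM there and at most at 0.984 FPKM elsewhere. Cxcl3 was at 1.58 and 2.45 FPKM there and at most at 0.153 FPKM elsewhere. The promoter of Cxcl2 held overlapping NF-kB type matches on both strands at -97 to -87 and a further one at -78 to -69.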
